A study of Mus musculus with 4 samples.

Results

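The glycolysis and hypoxia response genes were followed across 4 mouse cell populations: the induced pluripotent stem (iPS) cell lines iPS-OSH and iPS-J, embryonic stem cells (ESC), and fibroblasts of mouse embryos (MEF). The set is a list of 41 genes, found by their gene names among the non-control probes of a 1-colour Agilent whole genome array, out of 35242 gene names with a value on every array. The list was chosen with earlier results of these data known. All 41 names were found, 25 of them with a single probe and 16 with several, and the brightest probe over the 4 arrays stood for the gene. iPS cells come from body cells that were reprogrammed to pluripotency, and fibroblasts are the cells that build connective tissue. The iPS-OSH, iPS-J and MEF cells had a C57BL/6 genetic background and the ESC a 129SV background. iPS-OSH, iPS-J and ESC were grown in medium with 2-mercaptoethanol and leukaemia inhibitory factor (LIF), a cytokine that keeps mouse stem cells undifferentiated. MEF were grown in medium without either of them, so that against MEF, cell type and medium cannot be told apart. How the iPS lines were derived and the oxygen level of the cultures are not given in the sources used here.

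With 1 array per population, the differences below have no replicate check and no p-value, and the spread between cultures is unknown. Values are scaled signals, the processed intensity of a probe divided by the 75th percentile of its array, and differences are given on the log2 scale, where 1 is a 2-fold difference. The words higher and lower in counts mean a difference of at least 2-fold, by size alone. Of the non-control spots, between 67.0% (iPS-J) and 81.7% (MEF) were well above background. The spot noise of a difference between 2 arrays, from probes printed several times, had an SD between 0.22 (iPS-OSH and iPS-J) and 0.40 log2 units (ESC and MEF), and it covers error within arrays only. Of the 41 genes, all 41 passed the scanner's background call on the iPS-J, ESC and MEF arrays, and 40 on that of iPS-OSH, the exception being Ppp1r3g. All arrays lay on 1 slide but were scanned in 3 sessions, with both iPS lines in the same session and ESC and MEF in a session each. Scan session and population cannot be told apart except between iPS-OSH and iPS-J. In bulk RNA, fewer cells of a type and less RNA per cell cannot be told apart.

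Glycolysis splits glucose into pyruvate and yields ATP without oxygen, and lactate dehydrogenase and the lactate exporters dispose of the pyruvate that mitochondria do not burn. Most of its steps are carried out by related enzymes encoded by different genes, which tissues use in different proportions. When oxygen is short, the prolyl hydroxylases can no longer mark the alpha subunits of the hypoxia-inducible factors for destruction, and the stabilised factors switch on glucose transporters, glycolytic enzymes, pyruvate dehydrogenase kinases and genes of survival and matrix processing. Pluripotent stem cells are known for a strong reliance on glycolysis.

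The hypoxia-inducible factors bind the core motif ACGTG, or its variant that starts with G, GCGTG. The promoters of 4 hypoxia targets are shown because these genes had the widest drops in iPS-OSH against iPS-J among the hypoxia targets for which a promoter was at hand. Each is a 300-base window around the gene's start from RefSeq on GRCm38.p6, written 5′ to 3′ along the gene, with these motifs and their reverse complements in capitals. Overlapping matches and matches on both strands were counted separately, so that CACGTG counts as 2.
Bnip3, chr7:138909457-138909756, minus strand, 5 matches: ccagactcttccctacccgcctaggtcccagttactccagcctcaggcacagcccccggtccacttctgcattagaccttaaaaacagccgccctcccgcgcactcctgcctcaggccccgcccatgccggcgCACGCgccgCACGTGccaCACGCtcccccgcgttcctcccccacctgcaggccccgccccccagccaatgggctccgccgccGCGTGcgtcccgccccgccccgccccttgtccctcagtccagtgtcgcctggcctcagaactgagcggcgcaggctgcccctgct
Ankrd37, chr8:45999801-46000100, minus strand, 4 matches: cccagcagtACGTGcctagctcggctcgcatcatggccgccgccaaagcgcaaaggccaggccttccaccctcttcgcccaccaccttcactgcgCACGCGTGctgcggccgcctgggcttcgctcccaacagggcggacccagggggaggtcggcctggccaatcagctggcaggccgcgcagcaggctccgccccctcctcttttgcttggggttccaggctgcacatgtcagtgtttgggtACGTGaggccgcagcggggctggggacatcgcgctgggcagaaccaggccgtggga
Ddit4, chr10:59951721-59952020, minus strand, 2 matches: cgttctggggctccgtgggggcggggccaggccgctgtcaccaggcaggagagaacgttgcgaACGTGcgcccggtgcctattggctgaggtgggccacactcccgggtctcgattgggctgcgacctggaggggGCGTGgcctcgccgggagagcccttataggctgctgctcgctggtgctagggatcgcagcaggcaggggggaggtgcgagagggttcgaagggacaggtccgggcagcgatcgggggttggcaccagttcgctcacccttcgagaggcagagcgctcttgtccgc
P4ha2, chr11:54100674-54100973, plus strand, 4 matches: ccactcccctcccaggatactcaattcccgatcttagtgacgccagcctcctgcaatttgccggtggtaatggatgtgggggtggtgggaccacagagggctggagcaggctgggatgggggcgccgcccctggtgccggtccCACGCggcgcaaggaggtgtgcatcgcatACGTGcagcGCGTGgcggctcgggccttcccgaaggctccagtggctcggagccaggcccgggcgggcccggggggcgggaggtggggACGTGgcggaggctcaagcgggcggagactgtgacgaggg
A RefSeq promoter was found for 38 of the 41 genes, all but Slc2a3, Epas1 and Ndufa4l2. At least 1 match lay in a window of 35 of these 38 genes (92.1%), against 46.7% of all 27018 genes with a window. The genes without a match were Eno2, Gpi1 and Tpi1. Counted by window, 82.7% of 52 windows of the set and 43.8% of all 32841 windows held a match, and 57.7% against 20.7% held at least 2. The windows of the set were also richer in G and C (median 62.7% against 52.7%) and in the dinucleotide CpG, which both core motifs contain (median 20 against 7 per window), and the part of this composition in the matches was not tested. A match is a string of letters, not a measured binding site.

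Glucose and monocarboxylate transporters held the widest difference between pluripotent cells and fibroblasts. Slc2a3, which encodes the high-affinity glucose transporter GLUT3, had a scaled signal of 31.8 (iPS-OSH), 110 (iPS-J) and 75.8 (ESC), against 0.539 in MEF. These are differences of 5.88, 7.68 and 7.14 log2 units, or 59.0-fold, 205-fold and 141-fold. Its probe lies on chromosome 6 at 122678075 to 122678134 (mm9, in the files). No annotation of that build was used here, so exons and UTRs are not given. Slc2a1, the widely used glucose transporter GLUT1, had 29.6 (iPS-OSH), 72.8 (iPS-J) and 78.4 (ESC), against 25.1 in MEF, so that iPS-J and ESC were higher by 1.54 and 1.64 log2 units and iPS-OSH by 0.24. The change of Slc2a3 exceeded that of Slc2a1 by 5.64 (iPS-OSH), 6.14 (iPS-J) and 5.49 (ESC) log2 units, a comparison in which any scaling by 1 number per array cancels.

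The lactate exporter gene Slc16a3 (MCT4) had 7.15 (iPS-OSH), 41.3 (iPS-J) and 28.7 (ESC), against 43.4 in MEF. The iPS-OSH array stood apart, 2.60 log2 units below MEF and 2.53 below iPS-J. Slc16a1 (MCT1), which carries lactate and pyruvate in either direction, had 0.240 (iPS-OSH), 0.306 (iPS-J) and 0.734 (ESC), against 0.753 in MEF. Both iPS lines were therefore lower than ESC and MEF, by 1.61 and 1.26 log2 units relative to ESC.

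**Figure D1:**
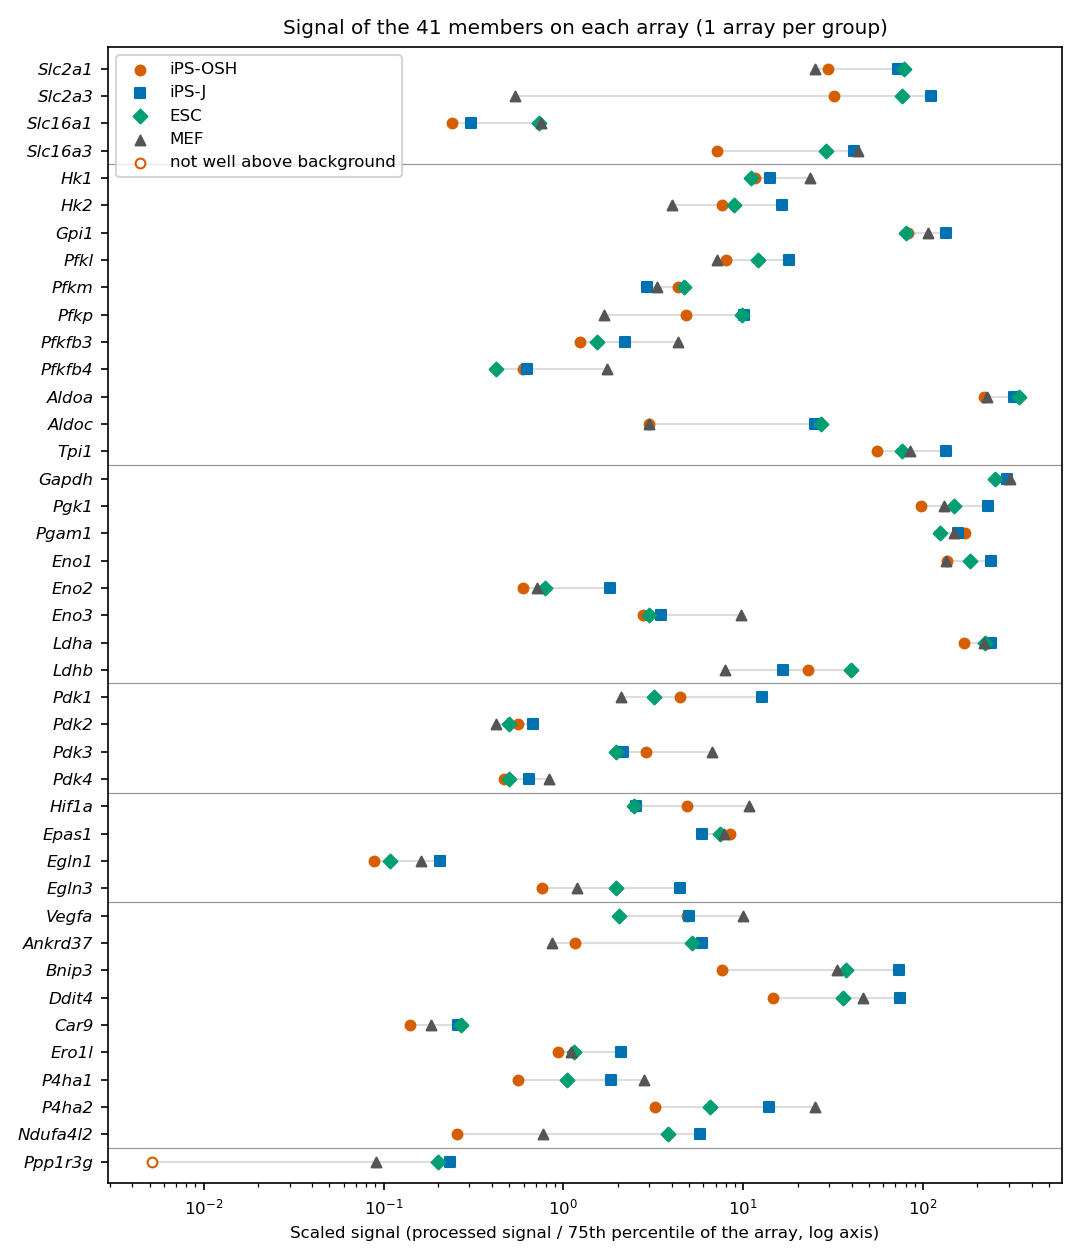
Scaled signal (log axis) of the 41 genes on the iPS-OSH, iPS-J, ESC and MEF arrays, 1 array each, with lines between groups of genes by role; the open symbol is a probe not well above background. Slc2a3 spans the widest range, with 110 in iPS-J against 0.539 in MEF, while the symbols of Gapdh lie between 251 and 302, and 20 genes have their lowest symbol in iPS-OSH.

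Among the enzymes of upper glycolysis, related genes differed from MEF unequally. Hk2, a hexokinase that hypoxia induces, had 7.57 (iPS-OSH), 16.3 (iPS-J) and 8.90 (ESC), against 3.99 in MEF. Hk1, the constitutive hexokinase, had 11.6 (iPS-OSH), 14.1 (iPS-J) and 11.03 (ESC), against 23.6 in MEF. Hk1 was thus lower and Hk2 higher than in MEF on every pluripotent array, and Hk1 shifted against Hk2 by -1.95, -2.78 and -2.26 log2 units in iPS-OSH, iPS-J and ESC. The other Hk1 probe was within 2-fold of MEF in all 3.

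Phosphofructokinase, which commits sugar to glycolysis, comes from 3 genes. Pfkl, the liver type, had 8.03 (iPS-OSH), 17.9 (iPS-J) and 12.0 (ESC), against 7.13 in MEF. Pfkm, the muscle type, had 4.33 (iPS-OSH), 2.91 (iPS-J) and 4.65 (ESC), against 3.30 in MEF, all within 2-fold. Pfkp, the platelet type, had 4.81 (iPS-OSH), 10.0 (iPS-J) and 9.80 (ESC), against 1.67 in MEF, higher by 1.53, 2.58 and 2.55 log2 units. The Pfkp value depends on the probe: the dimmer one was below MEF, with differences of -1.02 (iPS-OSH), -0.59 (iPS-J) and -0.75 (ESC). The probe that stands for Pfkp is shown because its 60 bases are spread over 2155 bases of chromosome 13 in the files (mm9), so that its letters are not contiguous in the genome, while the 60 bases of the other lie together.
Pfkp, brighter probe: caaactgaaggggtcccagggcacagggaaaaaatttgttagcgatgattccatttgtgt
With the median over probes in place of the brightest, the shift of Pfkp against Pfkl in iPS-J relative to MEF turned from 1.26 to -0.33, so no direction of Pfkp is settled.

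Of the bifunctional enzymes that set the activator of phosphofructokinase, Pfkfb3 and Pfkfb4 lay below MEF on every pluripotent array. Pfkfb1, a relative outside the set, lay above MEF by 0.62 (iPS-OSH), 2.23 (iPS-J) and 1.08 (ESC) log2 units. Pfkfb3 had 1.23 (iPS-OSH), 2.20 (iPS-J) and 1.53 (ESC), against 4.33 in MEF. Pfkfb4 had 0.596 (iPS-OSH), 0.623 (iPS-J) and 0.424 (ESC), against 1.74 in MEF. Pfkfb4 was lower by more than 2-fold in all 3 lines, and Pfkfb3 in iPS-OSH (-1.81) and ESC (-1.502), with iPS-J at -0.98.

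Aldolase splits the sugar into 3-carbon units. Aldoa, the form of muscle and most cells, had 217 (iPS-OSH), 320 (iPS-J) and 339 (ESC), against 227 in MEF, within 2-fold throughout. Aldoc, the form known from brain, had 2.98 (iPS-OSH), 25.1 (iPS-J) and 27.0 (ESC), against 2.97 in MEF. iPS-OSH was level with MEF (0.01) for Aldoc, while iPS-J and ESC were higher than MEF by 3.08 and 3.18 log2 units, and the shift of Aldoc against Aldoa was 0.07 (iPS-OSH), 2.58 (iPS-J) and 2.61 (ESC). Tpi1 (triose phosphate isomerase) had 55.6 (iPS-OSH), 134 (iPS-J) and 76.3 (ESC), against 84.6 in MEF, and Gpi1 (glucose phosphate isomerase) had 82.4 (iPS-OSH), 134 (iPS-J) and 80.6 (ESC), against 106 in MEF. Both were within 2-fold of MEF on every array and highest in iPS-J.

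In lower glycolysis the bright main enzymes differed little. Gapdh, which oxidises the triose phosphate, had 286 (iPS-OSH), 292 (iPS-J) and 251 (ESC), against 302 in MEF, and its 7 probes lay between -0.26 and 0.73 log2 units of MEF. Pgam1 (phosphoglycerate mutase) had 170 (iPS-OSH), 156 (iPS-J) and 124 (ESC), against 149 in MEF. Ldha, which makes lactate, had 168 (iPS-OSH), 239 (iPS-J) and 222 (ESC), against 216 in MEF. The brightest probes of these 3 genes were within 2-fold in all 6 comparisons, but the other Ldha probes were 0.90 and 1.15 log2 units above MEF in iPS-J. Pgk1, the first ATP-yielding kinase of the pathway, had 96.8 (iPS-OSH), 228 (iPS-J) and 148 (ESC), against 130 in MEF. Eno1, the enolase of most cells, had 135 (iPS-OSH), 238 (iPS-J) and 183 (ESC), against 134 in MEF. Pgk1 and Eno1 were both highest in iPS-J, and for Pgk1 the difference between iPS-OSH and iPS-J (-1.23) passed 2-fold.

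The minor relatives in lower glycolysis moved more. Eno2, known from neurons, had 0.595 (iPS-OSH), 1.81 (iPS-J) and 0.792 (ESC), against 0.710 in MEF, with iPS-J above the others. Eno3, the muscle enolase, had 2.78 (iPS-OSH), 3.47 (iPS-J) and 2.995 (ESC), against 9.69 in MEF, with differences of -1.80, -1.48 and -1.69 log2 units, all past 2-fold. Ldhb, the lactate dehydrogenase subunit known from heart, had 22.9 (iPS-OSH), 16.5 (iPS-J) and 39.6 (ESC), against 7.88 in MEF. Ldhb was higher than MEF by 1.54, 1.07 and 2.33 log2 units, and the shift of Ldhb against Ldha was 1.91 (iPS-OSH), 0.93 (iPS-J) and 2.30 (ESC). The iPS-J shift rests on the Ldha probe used: with the median over probes it was -0.08.

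The pyruvate dehydrogenase kinases, which switch off the entry of pyruvate into the citrate cycle, did not move together. Pdk1, the hypoxia-induced form, had 4.46 (iPS-OSH), 12.6 (iPS-J) and 3.17 (ESC), against 2.09 in MEF. Pdk3 had 2.87 (iPS-OSH), 2.14 (iPS-J) and 1.97 (ESC), against 6.70 in MEF. Pdk1 was higher than MEF on every pluripotent array, by 0.60 (ESC) to 2.59 (iPS-J) log2 units, and Pdk3 was lower on every one, by more than 2-fold. The shift of Pdk3 against Pdk1 was -2.31 (iPS-OSH), -4.24 (iPS-J) and -2.37 (ESC). Pdk2 had 0.555 (iPS-OSH), 0.680 (iPS-J) and 0.496 (ESC), against 0.421 in MEF, and Pdk4, the form induced by fasting, had 0.468 (iPS-OSH), 0.641 (iPS-J) and 0.498 (ESC), against 0.832 in MEF. Neither Pdk2 nor Pdk4 differed by 2-fold in any comparison.

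**Figure D2:**
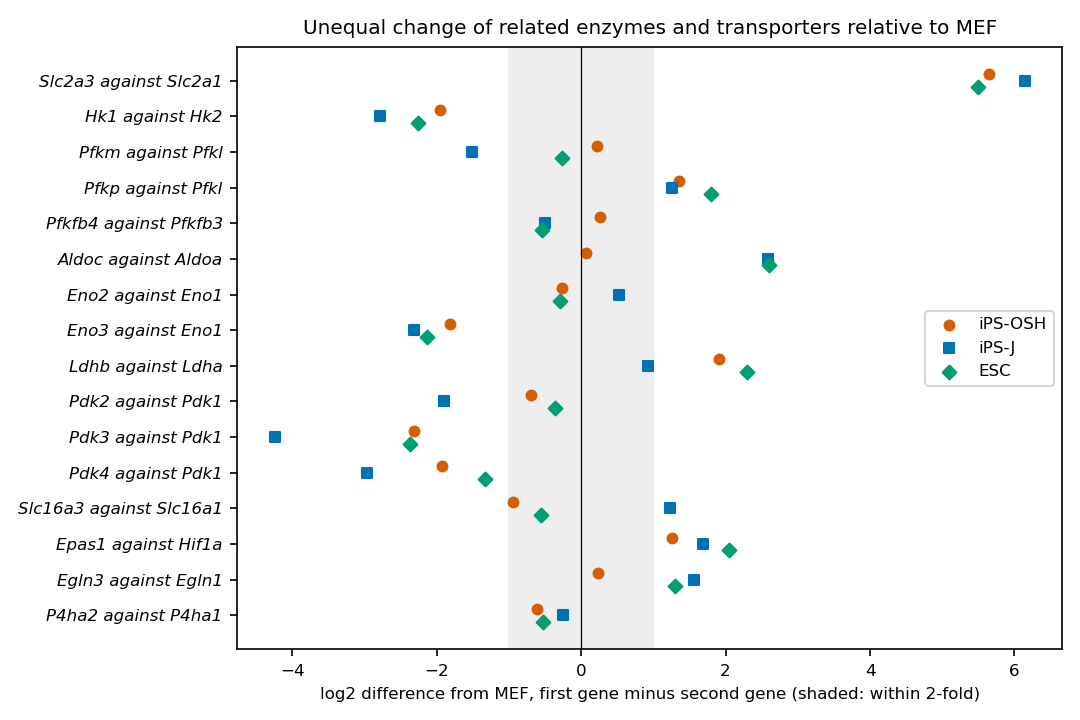
Shift of related genes relative to MEF: the log2 difference of the first gene from MEF minus that of the second, for iPS-OSH, iPS-J and ESC (1 array each; the shaded band is within 2-fold). Slc2a3 against Slc2a1 lies between 5.49 and 6.14 in all 3 lines, and Aldoc against Aldoa is near 0 in iPS-OSH (0.07) and at 2.58 and 2.61 in iPS-J and ESC.

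Of the factors and oxygen sensors, Hif1a had 4.84 (iPS-OSH), 2.51 (iPS-J) and 2.47 (ESC), against 10.7 in MEF. It encodes the alpha subunit of hypoxia-inducible factor 1 and is controlled mainly at the protein level, which the arrays do not measure. The differences of its brightest probe from MEF were -1.15, -2.10 and -2.12 log2 units. The dimmer Hif1a probe went the other way in iPS-J and ESC (1.39 and 0.39, with -0.58 in iPS-OSH), so the direction of Hif1a rests on 1 probe there.

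Epas1, the alpha subunit of factor 2, had 8.43 (iPS-OSH), 5.85 (iPS-J) and 7.38 (ESC), against 7.80 in MEF, within 2-fold. Its other probes were both higher than MEF in all 3 lines, one by 2.14, 1.42 and 0.81 log2 units and the other by 4.06, 2.39 and 1.70. The probes of Epas1 therefore disagree on whether it differs from MEF.

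Egln1 and Egln3 encode prolyl hydroxylases, and Egln3 is itself induced by hypoxia. Egln1 had 0.0886 (iPS-OSH), 0.205 (iPS-J) and 0.109 (ESC), against 0.161 in MEF. Egln3 had 0.764 (iPS-OSH), 4.45 (iPS-J) and 1.96 (ESC), against 1.19 in MEF. Both were lowest in iPS-OSH and highest in iPS-J, and Egln3 was higher than MEF by 1.91 log2 units in iPS-J. Of regulators outside the set, Egln2 (scaled signal 13.0 to 17.8), the partner subunit Arnt (2.89 to 4.97) and the factor-inhibiting hydroxylase Hif1an (0.296 to 0.519) stayed within 2-fold over the 4 arrays. Vhl, the ubiquitin ligase subunit that removes the hydroxylated alpha subunits, had 2.14 (iPS-OSH), 2.49 (iPS-J) and 2.63 (ESC), against 4.92 in MEF.

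Of the 9 hypoxia targets, 7 were at least 2-fold lower in iPS-OSH than in iPS-J and 0 higher, where 7.37% and 8.91% of all gene names were. Bnip3, which promotes removal of mitochondria, had 7.64 (iPS-OSH), 73.0 (iPS-J) and 37.4 (ESC), against 33.0 in MEF. Its brightest probe lies at 146082760 to 146082819 of chromosome 7 (mm9). Its signal was 9.55-fold lower in iPS-OSH than in iPS-J, and its other probes gave differences of -2.97 and -3.49 log2 units, close to the -3.26 of the brightest. Ddit4 (REDD1), an inhibitor of mTORC1 signalling, had 14.6 (iPS-OSH), 74.2 (iPS-J) and 35.7 (ESC), against 46.3 in MEF. Ankrd37, an ankyrin repeat protein, had 1.15 (iPS-OSH), 5.90 (iPS-J) and 5.17 (ESC), against 0.862 in MEF. For Bnip3 and Ddit4 the iPS-OSH array lay below all the others, whereas for Ankrd37 it lay near MEF.

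Ndufa4l2, a mitochondrial protein induced by hypoxia that lowers respiration, had 0.256 (iPS-OSH), 5.71 (iPS-J) and 3.81 (ESC), against 0.767 in MEF. Its probe lies at 126954149 to 126954208 of chromosome 10 (mm9). The 22.3-fold difference between iPS-OSH and iPS-J was the widest measured among the 41 genes, and iPS-OSH was also below MEF (-1.59) where iPS-J and ESC were above it (2.89 and 2.31). P4ha1 and P4ha2 encode the prolyl 4-hydroxylases that mature collagen. P4ha1 had 0.559 (iPS-OSH), 1.85 (iPS-J) and 1.05 (ESC), against 2.81 in MEF, and P4ha2 had 3.24 (iPS-OSH), 13.9 (iPS-J) and 6.50 (ESC), against 25.0 in MEF. For both genes MEF was highest, then iPS-J, then ESC, then iPS-OSH, and the differences of iPS-OSH from MEF were -2.33 and -2.95 log2 units.

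Vegfa, the growth factor of blood vessels, had 4.87 (iPS-OSH), 5.01 (iPS-J) and 2.03 (ESC), against 9.97 in MEF. The iPS lines were level with each other (-0.04), and both lay above ESC, by 1.26 and 1.30 log2 units. The other Vegfa probe was within 2-fold of MEF in iPS-OSH (-0.16) and iPS-J (0.49) and lower in ESC (-1.25). Ero1l, an oxidase of the endoplasmic reticulum, had 0.934 (iPS-OSH), 2.08 (iPS-J) and 1.15 (ESC), against 1.101 in MEF. Car9 (carbonic anhydrase 9) had 0.140 (iPS-OSH), 0.260 (iPS-J) and 0.271 (ESC), against 0.183 in MEF, within 2-fold in every comparison. Ppp1r3g, a glycogen-targeting subunit of protein phosphatase 1, was not well above background in iPS-OSH and had 0.235 (iPS-J) and 0.201 (ESC), against 0.0902 in MEF. It was at least 16.6-fold lower in iPS-OSH than in iPS-J, a bound taken at the lowest signal that passed the background call there.

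Between iPS-OSH and iPS-J, 21 of the 41 genes were at least 2-fold lower in iPS-OSH (51.2%) and 0 higher, against 7.37% lower and 8.91% higher of all 29291 gene names compared. The median difference of the set was -1.06 log2 units and that of all gene names 0.01. Because the genes were chosen with earlier results of these data known, these contrasts with all gene names are no independent check. The 21 were Slc2a1, Slc2a3, Slc16a3, Hk2, Pfkl, Pfkp, Aldoc, Tpi1, Pgk1, Eno2, Pdk1, Egln1, Egln3, Ankrd37, Bnip3, Ddit4, Ero1l, P4ha1, P4ha2, Ndufa4l2 and Ppp1r3g. By role, 7 of 9 hypoxia targets (median -2.10), 3 of 4 transporters, 5 of 11 enzymes of upper glycolysis, 2 of 8 of lower glycolysis, 1 of 4 kinases and 2 of 4 factors and hydroxylases were lower. The 7 other probes of these genes all pointed the same way, 6 of them past 2-fold. The highest values belonged to Hif1a (0.95), Pfkm (0.57) and Epas1 (0.53). The other Hif1a probe gave -1.97, however, and the other Epas1 probes 0.72 and 1.67, so the probes of these genes disagree in sign or on passing 2-fold. With the deposited values taken without scaling between arrays, 13 genes were lower and 1 higher, and the median was -0.72 while that of all gene names moved to 0.33. Relative to all gene names, the median of the set lay between -1.06 and -0.84 under the 8 alternatives.

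Of these 21 genes, 13 were lower than iPS-J by 2-fold or more under every alternative that gave a value. The other 8, Slc2a1, Hk2, Pfkl, Pfkp, Tpi1, Pgk1, Egln1 and Ero1l, stayed below 0 but fell short of 2-fold under some. In iPS-OSH 13 of the 21 had the lowest of their 4 signals, and the other 8 (Slc2a1, Slc2a3, Hk2, Pfkl, Pfkp, Aldoc, Pdk1 and Ankrd37) lay between iPS-J and MEF. Slc16a3, Bnip3, Ddit4, P4ha2, Ndufa4l2 and Ppp1r3g, 6 genes in all, were at least 2-fold below each of the other arrays in iPS-OSH, against 1.05% of all gene names. Over the whole set, 20 genes had their lowest signal in iPS-OSH, against 24.2% of all gene names, and 20 had their highest in iPS-J, against 18.4%.

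**Figure D3:**
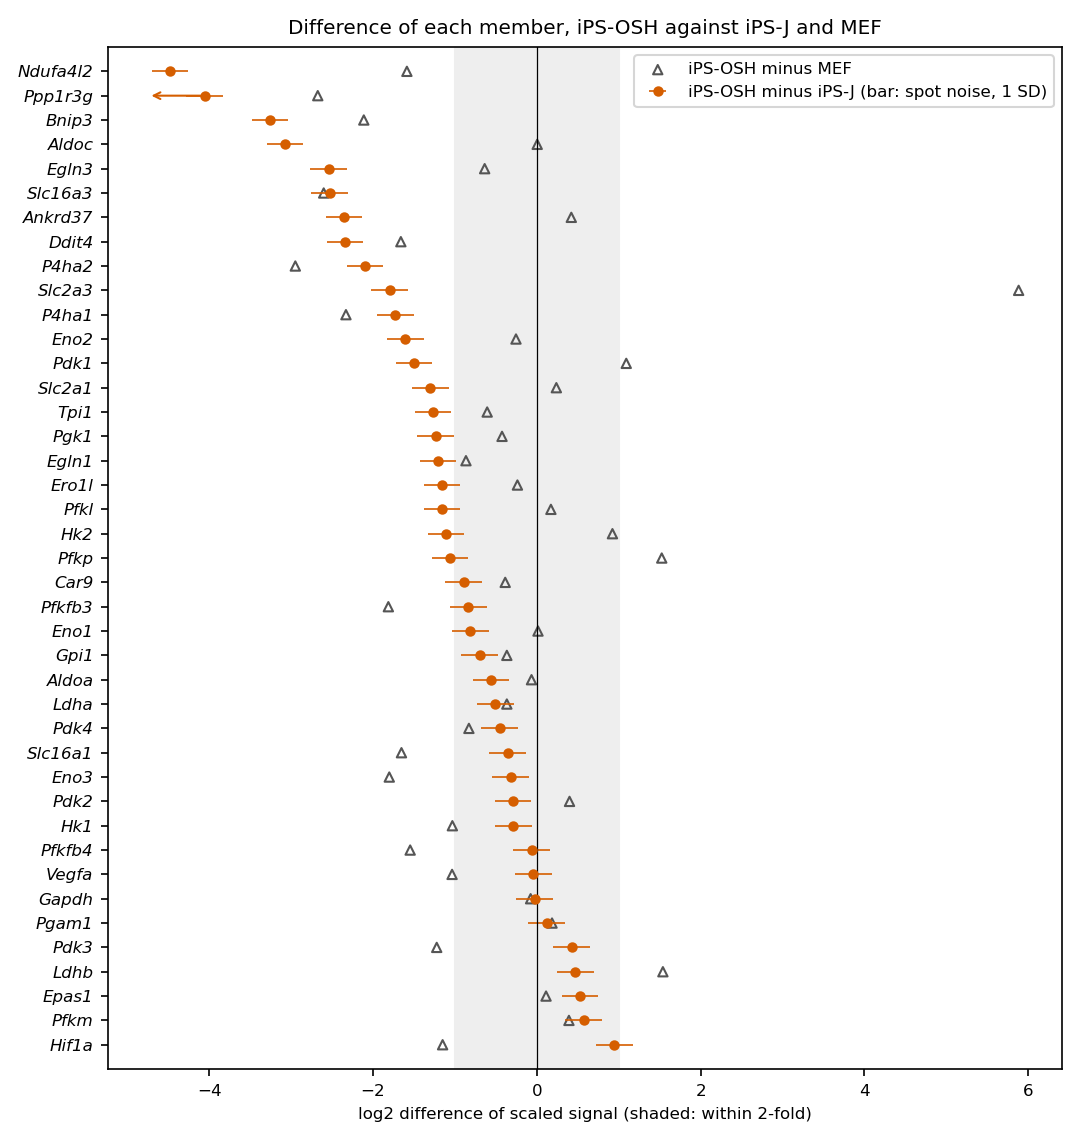
Difference in log2 scaled signal of each gene in iPS-OSH minus iPS-J (filled circles, bars 1 SD of spot noise) and iPS-OSH minus MEF (open triangles), with the 2-fold band shaded; both values of Ppp1r3g are bounds, the first marked by an arrow. The circles run from -4.48 (Ndufa4l2) to 0.95 (Hif1a) and 35 of 41 lie below 0.

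Against MEF, more genes of the set were lower than higher in iPS-OSH, and more were higher than lower in iPS-J. In iPS-OSH 4 genes were higher and 15 lower than in MEF, against 13.7% and 25.1% of all gene names. The median of the set was -0.39, near the -0.34 of all gene names. In iPS-J 14 genes were higher and 5 lower, against 16.2% and 26.2%, with a median of 0.51 against -0.31. The iPS-J balance depends on the scaling: with none between arrays, 9 genes were higher and 10 lower, with a median of 0.00, while all gene names had a median of -0.80. In ESC 9 were higher and 9 lower, against 22.6% and 16.7%, with medians of 0.06 and 0.13, and the ESC median turned to -0.43 with scaling on 10 Agilent spike-in probes and -0.37 with no scaling. The 3 comparisons share the MEF array, so they are not independent of each other.

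Only 3 genes, Slc2a3, Pfkp and Ldhb, were at least 2-fold higher than MEF in all 3 pluripotent lines, a share near the 8.53% of all gene names. Pfkfb4, Eno3, Pdk3 and Hif1a, 4 genes, were at least 2-fold lower in all 3, against 8.63%. A further 15 were within 2-fold of MEF in all 3 by their brightest probe, against 31.5% of all gene names: Gpi1, Pfkm, Aldoa, Tpi1, Gapdh, Pgk1, Pgam1, Eno1, Ldha, Pdk2, Pdk4, Epas1, Egln1, Car9 and Ero1l. Of these, Ldha in iPS-J and Epas1 in all 3 lines passed 2-fold with another probe. Among the genes called in all 3 lines, the other Pfkp probe was below MEF in each (-1.02, -0.59 and -0.75). The other Hif1a probe was above MEF in iPS-J (1.39) and ESC (0.39) and below it in iPS-OSH (-0.58).

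Against ESC, iPS-OSH had 1 gene higher (Vegfa) and 13 lower, against 8.85% and 27.6% of all gene names, with a median of -0.43 against -0.30. All 4 transporters were among the lower ones, with Aldoc (-3.18), Ndufa4l2 (-3.90) and Bnip3 (-2.29). The share lower (31.7%) was near that of all gene names, and with spike-in scaling 2 genes were higher and 8 lower. In iPS-J 6 genes were higher than in ESC and 2 lower, against 5.5% and 25.9%, with a median of 0.45 against -0.21. The higher ones were Pdk1 (2.00), Vegfa (1.30), Eno2 (1.19), Egln3 (1.18), P4ha2 (1.098) and Ddit4 (1.06), and the lower ones Ldhb and Slc16a1 (both -1.26). The count of higher genes in iPS-J was 10 with spike-in scaling and 2 where only probes detected on every array set the percentile. ESC and the iPS lines also differ in genetic background, which cannot be told apart from cell origin here.

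**Figure D4:**
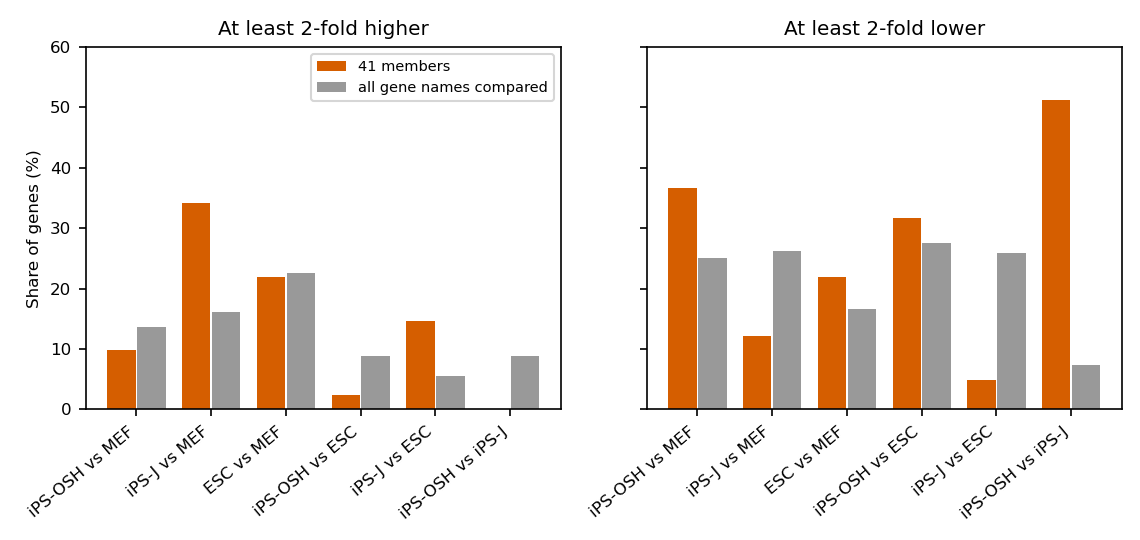
Share of genes (%) at least 2-fold higher (left) or lower (right) by size in the 6 comparisons, the first-named population over the second, for the 41 genes and for all gene names compared. The set stands farthest from all gene names in iPS-OSH against iPS-J, with 51.2% lower against 7.37%. The 41 genes were chosen with earlier results of these data known.

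The neighbouring pathways did not all follow the set between iPS-OSH and iPS-J. In this comparison 7.37% of all gene names were lower and 8.91% higher in iPS-OSH. Of the citrate cycle genes 0 of 21 passed 2-fold in either direction (median -0.34), of pyruvate oxidation 0 of 11 (median -0.22) and of the pentose phosphate pathway 0 of 13 (median 0.01). Pdha1, the catalytic subunit of pyruvate dehydrogenase, had 9.20 in iPS-OSH and 7.94 in iPS-J. Among further relatives of glycolytic enzymes and transporters, 1 of 20 was higher and 6 lower. The widest was Hkdc1, a hexokinase-like gene, at -5.11 log2 units, while Pkm2, the pyruvate kinase of the last step, had 88.2 in iPS-OSH and 105.3 in iPS-J. Of the glycogen genes 1 of 20 was higher and 5 lower, among them Pgm2 (-1.92) and the glycogen phosphorylase Pygl (-1.55). Of gluconeogenesis, 0 of 9 were higher and 3 lower. Of the regulators of the hypoxia response, 1 of 19 was higher and 3 lower, with Hif3a at -2.05.

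Further hypoxia targets, a list outside the set that was also chosen with earlier results of these data known, were mixed. Of 40 compared, 13 were lower and 7 higher in iPS-OSH than in iPS-J, with a median of -0.16. Among all gene names 7.37% were lower and 8.91% higher. Stc2, which encodes a secreted glycoprotein, was among the lower ones (-3.07 log2 units), as was the carbonic anhydrase gene Car12 (-2.54). Lox, the collagen crosslinking enzyme and itself a fibroblast marker, was higher by 3.41. The 9 hypoxia targets of the set had a median of -2.10 in the same comparison.

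Markers of cell types also differed in several of these comparisons. The 8 pluripotency markers, among them Pou5f1, Sox2 and Nanog, were higher than MEF in all 3 lines, with summed scaled levels of 266 (iPS-OSH), 391 (iPS-J) and 482 (ESC), against 0.686 in MEF, where Sox2 and Zfp42 were not well above background. Of 10 fibroblast markers, 9 were higher in iPS-OSH than in iPS-J, and their summed level was 266 (iPS-OSH), 54.5 (iPS-J) and 43.1 (ESC), against 1001 in MEF. Of 9 primitive endoderm markers, 8 were lower in iPS-OSH than in iPS-J, and all 9 were higher in iPS-J than in ESC. Their summed level was 175 (iPS-OSH), 356 (iPS-J) and 104 (ESC), against 306 in MEF. The matrix gene Sparc made up 167, 212 and 83.6 of these sums in the pluripotent lines, against 302 in MEF, so the sums mostly follow Sparc. Gene by gene, 0 of the 9 were higher and 4 lower in iPS-OSH than in ESC. The summed level of the 4 blood markers measured lay between 3.34 and 10.2 on the 4 arrays, and Hbb-b1 was not well above background on any. Most fibroblast markers were thus higher, and most endoderm markers lower, in iPS-OSH than in iPS-J, where many genes of the set were lower. The part of these markers in the results was not tested.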

How the data were processed

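Total RNA of 4 cell populations, 1 array each, was labelled with Cy3 and hybridised to Agilent arrays, per the labels' protocols. The deposited scanner files give each spot's intensity, background-subtracted and detrended within each array by Agilent Feature Extraction 10.5.1.1, per the file headers. No normalization between arrays was applied there. The genome build of the probe positions is mm9, as in the files. Spots flagged as uneven or outlying and control spots were left out, and the log2 intensity was taken minus the 75th percentile of each array. The brightest probe per gene name stood for the gene. A probe well above background on only 1 of 2 arrays gave a lower bound. The MEF array was read with an earlier annotation, and the names of the iPS-OSH array were used for all. The members and lists were chosen with earlier results of these data known. All 41 members were reported, and of other lists up to 4 genes with the largest differences, the markers and Pkm2, Vhl, Arnt, Hif1an, Egln2 and Pdha1. The calling of 2-fold differences was tested on simulated data with preset effects and less noise than the comparisons with MEF had. That test did not cover the scaling, the choice of probe or the spread between cultures. Alternatives were normexp with offset 50 (limma 3.58.1), quantile normalization, other scalings, probe summaries and detection filters. The number of arrays limits the precision.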

Additional observations from a re-analysis of the deposited data

Results flagged for a closer look

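For 3 genes iPS-OSH lay at least 2-fold below MEF and another pluripotent line at least 2-fold above it. The share of all gene names with this pattern is not given here, and the set was chosen with earlier results known. The difference between the lines was not tested, since each had 1 array. Bnip3 differed from MEF by -2.11 log2 units in iPS-OSH and by 1.14 in iPS-J. Its other probes gave -2.51 and -1.90 in iPS-OSH, but 0.46 and 1.59 in iPS-J, so its iPS-J call depends on the probe. It also depends on the scaling: without it, the signals of the brightest probe were 90562.5 (iPS-J) and 58297.8 (MEF), less than 2-fold apart. Ndufa4l2 differed from MEF by -1.59 (iPS-OSH), 2.89 (iPS-J) and 2.31 (ESC). Ppp1r3g, not well above background in iPS-OSH, was lower than MEF by at least the bound of -2.67 there and differed by 1.38 in iPS-J and 1.15 in ESC. Without scaling, its signals were 292 (iPS-J), 262 (ESC) and 159 (MEF), so neither line was 2-fold above MEF. Dixon's rule for a single outlying sample could not be applied with 1 array per group.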

How the results depend on the processing

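Counts and medians of the set in the 6 comparisons were recomputed under 8 alternatives, and 126 of 144 values kept within 1.5 times the count or within the spot noise. The other 18 were as follows. With no scaling between arrays, iPS-J against MEF had 9 genes higher, 10 lower and a median of 0.00, ESC against MEF a median of -0.37, iPS-OSH against ESC 2 higher, and iPS-OSH against iPS-J 1 higher, 13 lower and a median of -0.72. With spike-in scaling, iPS-J against MEF had 9 lower, ESC against MEF a median of -0.43, iPS-OSH against ESC 2 higher, 8 lower and a median of -0.059, iPS-J against ESC 10 higher, and iPS-OSH against iPS-J 1 higher. With normexp, iPS-OSH against ESC had 2 higher and iPS-OSH against iPS-J 1 higher. With the percentile over probes detected on all arrays, iPS-J against ESC had 2 higher. Of 99 calls of single genes, between 79 (no scaling) and 99 (no filter) were kept, and 0 reversed. All alternatives but the median over probes kept the same probe for a gene, so they could not show a reversal by another probe. Other probes of Pfkp and Hif1a did point the opposite way in comparisons with MEF, for Hif1a in iPS-J and ESC only. Of the isoform shifts, Pfkp against Pfkl in iPS-J relative to MEF reversed, to -0.33 with the median over probes. Ldhb against Ldha in the same comparison went from 0.93 to just below 0 with that setting. The cause was not tested. The alternatives moved the median of all gene names by over 0.1: in iPS-J against MEF it lay between -0.80 and -0.08, with -0.31 as reported, and in ESC against MEF between -0.37 and 0.37, with 0.13 as reported. The slide as a block was not run, since all arrays lay on 1 slide. No paired analysis was possible because each group had 1 array, and none could be left out in turn. Weak signals are limited by background: Ppp1r3g has only a bound in comparisons with iPS-OSH.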
